A study of Mus musculus with 12 samples.

Results

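Wfdc18 and 6 other genes of the whey acidic protein (WAP) family were followed across 12 expression arrays of mouse intestinal epithelium. Wfdc18 was chosen by its measured values, because it was high in the 2 KO adjacent arrays and in no other array; Wfdc2, Slpi, Wfdc1, Wfdc3, Wfdc12 and Wfdc15b were added as family members. Each gene was read from the probe set, mapped to exactly 1 symbol, with the highest mean over the 12 arrays. All 7 members were found among 19938 genes, and no filter on low values was applied to them.

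WAP proteins are small secreted proteins built around a domain that conserved cysteines fold into a compact shape through disulfide bonds. Many of them block serine proteases or kill bacteria at mucosal surfaces, and they are made by secretory epithelia and by myeloid cells. Wfdc18, listed in the reference table under the older names Expi and WDNM1, is known from the mouse mammary gland as a secreted protein of this family.

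The epithelium, of intestinal tumors or of the tissue beside them, was isolated by laser dissection from male C57BL6/J mice. They carried APCmin/+, an inactivated copy of Apc that leads to intestinal adenomas, and were kept to an age of 25 weeks, or to an earlier end for loss of weight. KO denotes FSPCre-PPARB -/-, in which Cre driven by the fibroblast-specific protein promoter removes the nuclear receptor gene Ppard, and floxed denotes PPARB flox/flox littermates, so both genotypes carried APCmin/+ and Cre was not driven by an epithelial promoter. Tumor epithelium had 3 KO and 3 floxed arrays, and adjacent epithelium had 2 of each genotype. The genotype of 2 other adjacent arrays is contradictory in the labels. Conflict array 1 has KO in its title but floxed as its genotype characteristic, conflict array 2 has the reverse, and neither entered the tests. No label says which animal an array came from, so the p-values measure the spread between arrays, which may share an animal or be partly technical.

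The values are deposited log2 expression values, without detection calls. Floxed tumor arrays 1 and 2 and both floxed adjacent arrays had weak signal, with a median correlation with the other arrays of 0.507 to 0.611 over all probe sets, against 0.818 to 0.852 in the other 8 arrays. Every floxed adjacent array with a clear label was thus of weak signal, and in adjacent epithelium genotype and signal cannot be told apart. The median of the 12146 probe sets without a gene name was 4.24 to 4.39 in the weak-signal arrays and 3.85 to 3.94 in the others, and gives a rough level of dim signal. The 11 epithelial markers listed, among them Epcam, Cdh1 and Vil1, averaged 6.47 to 7.22 in KO tumor, 5.20 to 7.85 in floxed tumor, 6.84 to 6.94 in KO adjacent and 5.05 to 5.32 in floxed adjacent arrays (range of the list mean over arrays, log2). None of the 11 lay under the dim level in both KO adjacent arrays.

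The genomic setting of Wfdc18 was as follows. Wfdc18 lies on chromosome 11, between 2 other WAP genes, Wfdc17 and Wfdc21, its nearest protein-coding neighbours in the RefSeq table. Of the 7 members, 5 lie on chromosome 2 and Wfdc1 lies on chromosome 8. The promoter windows of Wfdc18 and Wfdc17 are printed because these adjacent family genes had different patterns across the arrays. Each window runs 5′ to 3′ on the plus strand from 250 bases before to 50 bases after the annotated start (RefSeq, GRCm38.p6), at chr11:83708754-83709053 for Wfdc18 and chr11:83703806-83704105 for Wfdc17. Capitals mark matches to the motifs named in the next paragraph.
Wfdc18: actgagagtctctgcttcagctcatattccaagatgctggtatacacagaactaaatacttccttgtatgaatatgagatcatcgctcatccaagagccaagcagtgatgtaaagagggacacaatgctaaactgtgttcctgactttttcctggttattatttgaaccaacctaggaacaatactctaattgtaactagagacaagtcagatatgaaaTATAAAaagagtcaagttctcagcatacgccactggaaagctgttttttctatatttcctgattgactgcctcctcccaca
Wfdc17: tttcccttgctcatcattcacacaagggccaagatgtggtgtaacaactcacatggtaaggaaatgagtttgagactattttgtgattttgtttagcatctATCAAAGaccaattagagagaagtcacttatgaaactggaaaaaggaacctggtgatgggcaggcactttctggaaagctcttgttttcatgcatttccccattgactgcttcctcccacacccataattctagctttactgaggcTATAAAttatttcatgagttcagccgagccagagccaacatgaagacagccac

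Both windows held the letters of a TATA box (TATAAA, searched on both strands). The match began 31 bases before the annotated start in Wfdc18. In Wfdc17 it began 3 bases before the annotated start and overlapped it, so there it is a letter match only. These letters were found in 13.6% of 32851 promoter windows of the same length. Wfdc17 also held a TCF/LEF motif (ATCAAAG, in 3.73% of windows), the site through which Wnt signalling acts, and Wfdc18 did not. Neither window held a STAT motif (TTCNNNGAA, in 8.3% of windows) or a nuclear receptor half-site (AGGTCA, in 16.3% of windows), also searched on both strands. The windows shared a stretch with 43 of 51 aligned positions identical, 84.3%, which lay from base 2 to base 50 after the start in Wfdc18 and from 79 to 29 bases before the start in Wfdc17. Of the relatives, Wfdc2, Wfdc3 and Wfdc15b held the nuclear receptor half-site in their own windows, and Slpi and Wfdc12 held none of the 4 motifs. Wfdc1 had no window among those searched. Such matches describe the sequence and do not show that a factor binds.

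Wfdc18 was measured at 9.61 and 9.88 in KO adjacent arrays 1 and 2, against 3.47 and 5.86 in floxed adjacent arrays 1 and 2. In tumor epithelium it was 4.32, 4.00 and 4.47 in KO arrays 1 to 3 and 3.71, 3.90 and 4.06 in floxed arrays 1 to 3. Conflict arrays 1 and 2 held 4.49 and 4.27. The KO adjacent arrays stood far above every other array, and the other 10 lay between 3.47 and 5.86 with a median of 4.16, near the level of the unnamed probe sets. In such bulk RNA, more cells that express a gene and more of its RNA per cell cannot be told apart.

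**Figure D1:**
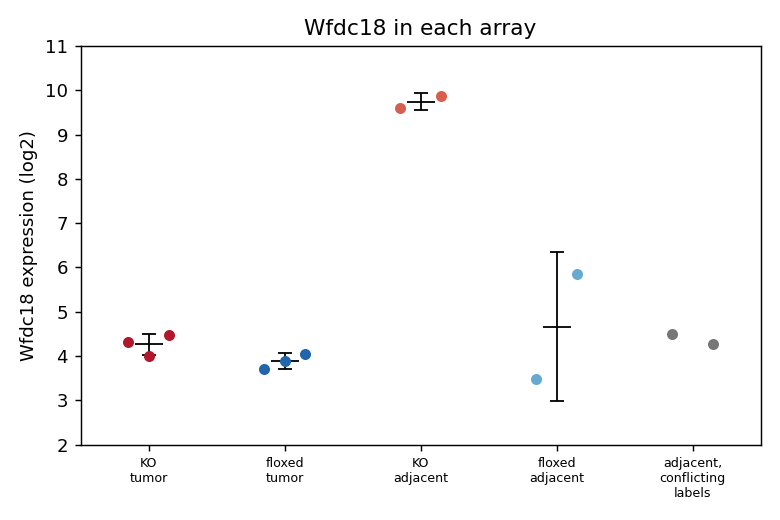
Wfdc18 expression (log2, y axis) in each of the 12 arrays, by group (x axis); points are arrays, and bars are the mean and SD of the groups with a clear genotype. The 2 KO adjacent arrays lie at 9.61 and 9.88, and all others at or below 5.86.

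Even the lower KO adjacent array exceeded the highest of the other 10, floxed adjacent array 2, by 3.75 (log2), a 13.4-fold linear difference. Floxed adjacent array 2 was itself apart from the rest, since the next of those 10 arrays was at 4.49. In decreasing order, Wfdc18 averaged 9.74 ± 0.19 (SD, n = 2) in KO adjacent, 4.67 ± 1.69 (n = 2) in floxed adjacent, 4.27 ± 0.24 (n = 3) in KO tumor and 3.89 ± 0.17 (n = 3) in floxed tumor arrays. Floxed adjacent and KO tumor means differed by less than the spread of the floxed adjacent arrays. KO tumor array 2, at 4.00, lay below floxed tumor array 3, at 4.06, so the tumor groups overlapped.

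KO minus floxed was 5.08 (log2) in adjacent and 0.38 in tumor epithelium, and tumor minus adjacent was −5.48 in KO and −0.78 in floxed arrays. These differences of means are given without a test because Wfdc18 was chosen from them. The value in floxed arrays turned to 0.42 without floxed adjacent array 2. KO tumor and KO adjacent arrays were all of stronger signal, with correlations of 0.947 to 0.955 between the groups over all probe sets. The part of signal strength in the Wfdc18 differences was not tested.

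Neither reading of the conflicting labels added a further high KO adjacent array. With the title taken as right, the KO array so added held 4.49, and KO minus floxed in adjacent epithelium was 3.46. With the characteristic taken as right, it held 4.27, and the difference was 3.31. Over all probe sets, KO adjacent arrays 1 and 2 correlated with each other at 0.973, with conflict array 2 at 0.960 and 0.958, and with conflict array 1 at 0.849 and 0.852. Conflict array 2 correlated with KO tumor arrays 1 to 3 at 0.970, 0.973 and 0.956, and had Wfdc18 at the level of those arrays. With floxed tumor array 3, of stronger signal, conflict array 1 correlated at 0.9 and conflict array 2 at 0.818. Conflict array 1 correlated with KO tumor arrays 1 to 3 at 0.822, 0.834 and 0.832. Which label is right was not tested.

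Over all 19938 genes, 595 (2.98%) had both KO adjacent arrays above the other 10, and in 14 the gap was over 1 (log2). The gap of Wfdc18 ranked 1st, followed by that of Scd2 at 2.37, which restates how Wfdc18 was picked. Of the 6 relatives, 1 had both KO adjacent arrays above all others, Wfdc15b, with a gap of 0.15. No gene of the 16 listed in the wider WAP family did, and the largest value there was −0.12. Neither family gene next to Wfdc18 on chromosome 11 shared the pattern. Wfdc17, whose product is made by activated macrophages and microglia, was at 4.46 and 4.10 in KO adjacent arrays 1 and 2, within its range of 2.72 to 4.56 over the other 10 arrays. Wfdc21 was at 4.70 to 4.86 in the KO adjacent arrays, within its 4.36 to 5.53 elsewhere. Of the 5 protein-coding neighbours on each side, 9 were measured, and Ddx52, an RNA helicase gene, was the one with both KO adjacent arrays above the rest, by 0.19.

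The relatives were tested in each comparison with limma, adjusted over all genes, and the call rule was an adjusted p under 0.05. In KO against floxed adjacent epithelium 0 of 6 relatives passed, where 6.06% of all genes did. Of the 6, 2 had an unadjusted p under 0.05 (limma), beside 5615 of all 19938 genes. In KO against floxed tumor epithelium 0 of 6 passed, where 1.08% of all genes did. Of the 6, 1 had an unadjusted p under 0.05 (limma), beside 4595 of all genes. For tumor against adjacent epithelium 0 of 6 passed in KO arrays, where 0.0201% of genes did. In floxed arrays 0 of 6 passed, where 0.00502% of genes did. In each genotype 1 relative had an unadjusted p under 0.05 (limma), beside 492 of all genes in KO and 2495 in floxed arrays. The median KO minus floxed of the 6 was 0.50 in adjacent and 0.06 in tumor epithelium (log2), beside −0.04 and −0.01 over all genes. Missing the threshold does not show that a relative was the same in both groups, and intervals are given with the genes.

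**Figure D2:**
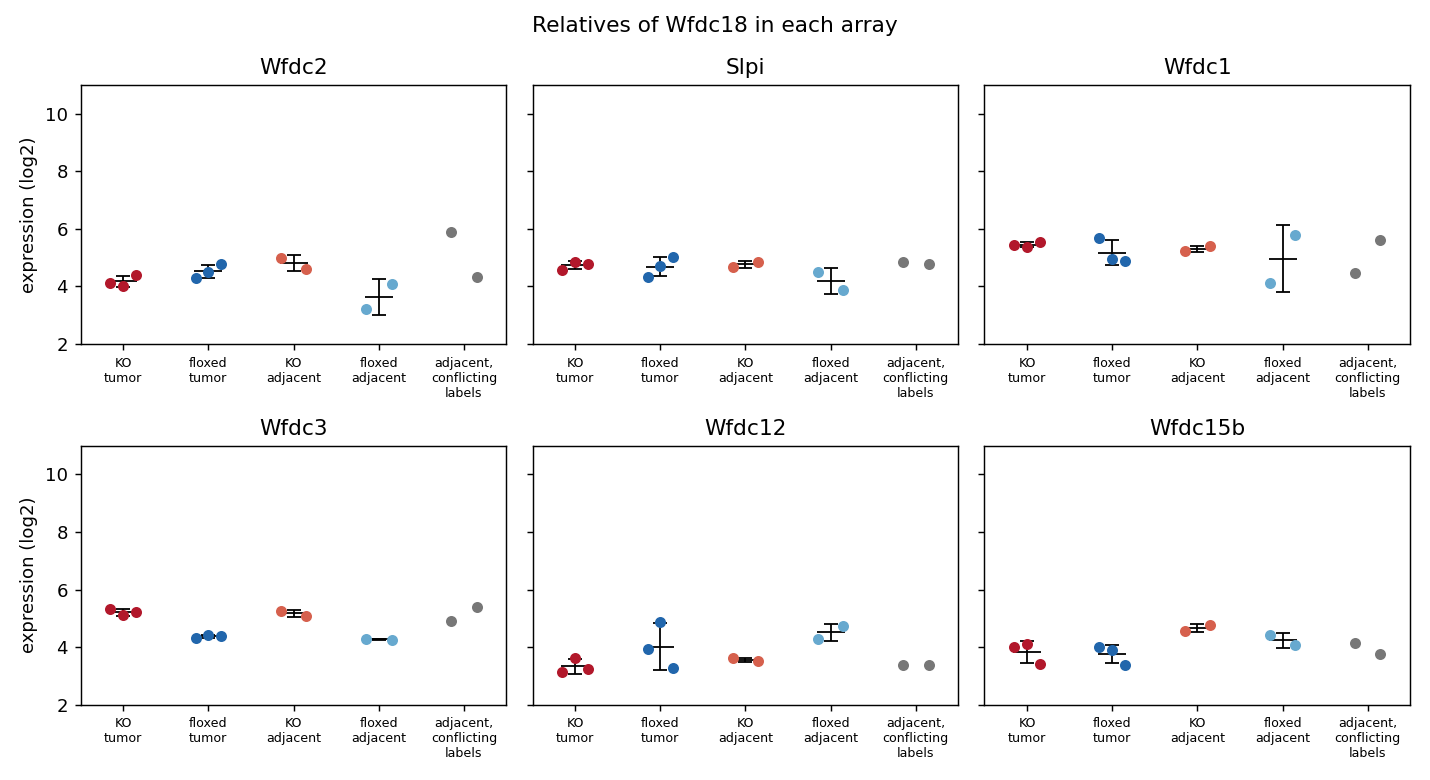
Expression (log2, y axis) of the 6 relatives in each array by group (x axis), on the same scale as the plot of Wfdc18; points are arrays, and bars are the mean and SD of the groups with a clear genotype. No value of a relative exceeds 5.88, and Wfdc3 separates KO from floxed arrays in both tissues.

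Slpi, secretory leukocyte protease inhibitor, blocks neutrophil elastase and cathepsin G at mucosal surfaces. It measured 4.58, 4.85 and 4.78 in KO tumor arrays 1 to 3, against 4.34, 4.70 and 5.02 in floxed tumor arrays 1 to 3. The KO adjacent arrays read 4.68 and 4.85, the floxed adjacent arrays 4.52 and 3.88, and conflict arrays 1 and 2 read 4.85 and 4.79. The tumor groups overlapped, and in adjacent epithelium both KO arrays were above both weak-signal floxed arrays. KO minus floxed was 0.57 ± 0.32 (SE) in adjacent epithelium (95% interval −0.14 to 1.28; limma adjusted p = 0.267) and 0.05 ± 0.26 in tumor epithelium (interval −0.53 to 0.63; limma adjusted p = 0.927). The adjacent value was 0.89 without floxed adjacent array 1 and 0.25 without floxed adjacent array 2. Slpi was thus nearly level across arrays of stronger signal, at 4.58 to 5.02, including the arrays in which Wfdc18 was high.

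Wfdc2, also called HE4, is a secreted WAP protein of airway and reproductive tract epithelia. It was 4.11, 4.02 and 4.40 in KO tumor arrays 1 to 3, against 4.31, 4.49 and 4.76 in floxed tumor arrays 1 to 3. KO adjacent arrays 1 and 2 read 4.997 and 4.62, against 3.20 and 4.08 in floxed adjacent arrays 1 and 2. Its highest value, 5.88, was in conflict array 1, while conflict array 2 held 4.31. KO minus floxed was 1.16 ± 0.34 in adjacent epithelium (SE; 95% interval 0.40 to 1.92; limma adjusted p = 0.0644) and −0.34 ± 0.28 in tumor epithelium (interval −0.96 to 0.28; limma adjusted p = 0.487). Tumor minus adjacent was −0.63 ± 0.31 in KO and 0.88 ± 0.31 in floxed arrays (limma adjusted p = 1 and 0.318). The adjacent difference depended on single arrays and on the labels. It was 0.72 without floxed adjacent array 1 (limma adjusted p = 0.227), and 0.25 with the conflicting labels read by characteristic (adjusted p = 0.796). Without floxed tumor array 2 or 3, which alters only the shared spread, the limma adjusted p was 0.0481 or 0.0245. Over all genes 3041 or 4903 then passed, against 1209 in the main fit. Across all alternatives the adjusted p of Wfdc2 ran from 0.0245 to 0.796.

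Conflict array 1, where Wfdc2 was highest, also held stomach and Brunner gland markers at a mean of 9.94, against 4.70 in conflict array 2. These 8 markers, all measured, averaged 5.67 to 6.42 in KO adjacent, 4.72 to 4.97 in floxed adjacent, 4.48 to 6.39 in KO tumor and 4.44 to 6.54 in floxed tumor arrays. Muc5ac, a mucin of gastric surface cells, was 9.91 in conflict array 1 and at most 5.57 in the other arrays. Wfdc18 was 4.49 in conflict array 1, the array with the highest mean of these markers. The part of this tissue in the Wfdc2 and Wfdc18 values was not tested.

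Wfdc3, a further WAP gene of the chromosome 2 cluster, differed most evenly by genotype. It was 5.33, 5.10 and 5.21 in KO tumor arrays 1 to 3, against 4.33, 4.43 and 4.38 in floxed tumor arrays 1 to 3. The KO adjacent arrays read 5.26 and 5.09, against 4.29 and 4.26 in the floxed adjacent arrays. Conflict arrays 1 and 2 held 4.90 and 5.39, so conflict array 1 lay between the genotypes and conflict array 2 at the KO level. All KO arrays were above all floxed arrays, floxed tumor array 3, of stronger signal, included. KO minus floxed was 0.83 ± 0.21 in tumor epithelium (SE; 95% interval 0.38 to 1.29; limma adjusted p = 0.0746) and 0.90 ± 0.25 in adjacent epithelium (interval 0.35 to 1.46; limma adjusted p = 0.0575). Neither passed. It passed in tumor epithelium with array weights (limma adjusted p = 0.0442), without floxed tumor array 3 (0.0134), and against that array alone when weak-signal arrays were left out (0.83, adjusted p = 0.0169), where the 1 floxed array was assumed to vary like the KO arrays. Over all alternatives the adjusted p in tumor epithelium ran from 0.0134 to 0.269. In adjacent epithelium it passed without floxed tumor array 1, 2 or 3 (limma adjusted p = 0.0430, 0.0315 and 0.0174). Over all genes 1804, 3041 and 4903 then passed, against 1209 in the main fit. Wfdc3 did not pass without KO adjacent array 1 or 2, either of which leaves 1 KO adjacent array. With the conflicting labels read by title the adjacent difference was 0.44 (limma adjusted p = 0.432).

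A second probe set for Wfdc3 showed this split in tumor epithelium only. It read 4.12 to 4.31 in KO tumor, 3.91 to 4.05 in floxed tumor, 3.98 to 4.14 in KO adjacent and 4.34 to 4.36 in floxed adjacent arrays. The second probe set was thus higher in KO in tumor epithelium and lower in KO in adjacent epithelium. The Wfdc3 difference therefore rests on the brighter of 2 probe sets that disagree in adjacent epithelium.

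Wfdc1, also called ps20, is a secreted WAP protein known from prostate stroma. It was 5.44, 5.37 and 5.54 in KO tumor arrays 1 to 3, against 5.68, 4.95 and 4.90 in floxed tumor arrays 1 to 3. Wfdc1 read 5.23 and 5.39 in the KO adjacent arrays, against 4.13 and 5.78 in the floxed adjacent arrays, with 4.45 and 5.61 in conflict arrays 1 and 2. The genotypes overlapped in both tissues. KO minus floxed was 0.27 ± 0.39 in tumor (SE; limma adjusted p = 0.70) and 0.35 ± 0.47 in adjacent epithelium (adjusted p = 0.648). The adjacent value turned to −0.47 without floxed adjacent array 1.

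Wfdc12 and Wfdc15b, once named SWAM2 and SWAM1, are mouse WAP proteins with antibacterial activity. Wfdc12 was 3.13, 3.63 and 3.23 in KO tumor arrays 1 to 3, against 3.93, 4.87 and 3.26 in floxed tumor arrays 1 to 3. Its level in the KO adjacent arrays was 3.61 and 3.50, against 4.29 and 4.73 in the floxed adjacent arrays, and both conflict arrays read 3.39. Across all arrays it split by signal, at 3.93 to 4.87 in the 4 weak-signal arrays and 3.13 to 3.63 in the other 8. Wfdc12 was above the dim level of its own array in only 3 of 12 arrays, so its differences rest largely on dim values. KO minus floxed was −0.69 ± 0.37 in tumor (SE; limma adjusted p = 0.285) and −0.95 ± 0.45 in adjacent epithelium (adjusted p = 0.192). Without the weak-signal arrays the tumor value was 0.07, and without floxed tumor array 3 alone it was −1.07 (limma adjusted p = 0.0258, in a range of 0.0258 to 0.854 over all alternatives). Without floxed tumor array 2 it was −0.27.

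Wfdc15b was 3.99, 4.12 and 3.41 in KO tumor arrays 1 to 3, against 3.99, 3.91 and 3.39 in floxed tumor arrays 1 to 3. The values 4.56 and 4.77 came from the KO adjacent arrays, against 4.41 and 4.06 from the floxed adjacent arrays, with 4.13 and 3.75 in conflict arrays 1 and 2. Its 2 highest values were thus in the KO adjacent arrays, the same arrays as for Wfdc18, but the whole range was 1.38 (log2), against 6.41 for Wfdc18. Tumor minus adjacent in KO was −0.83 ± 0.31 (SE; 95% interval −1.50 to −0.15; unadjusted p = 0.0206, limma adjusted p = 1). With array weights it passed (−0.73, limma adjusted p = 0.0193), as did Wfdc2 (−0.69, adjusted p = 0.0199).

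The interaction, which tests whether the genotype difference differed between tissues, called 0 of the 6 relatives and 0% of all genes (limma), with 1 relative and 1281 genes at an unadjusted p under 0.05. That relative was Wfdc2, at −1.51 ± 0.44 (SE; 95% interval −2.49 to −0.53; unadjusted p = 0.00617, limma adjusted p = 0.703).

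The 16 further genes of the WAP family were all measured, and 0 passed in any of the 5 comparisons (limma). An unadjusted p under 0.05 was found for 5 in KO against floxed adjacent and 0 in KO against floxed tumor arrays. It was found for 0 in tumor against adjacent in KO, 1 in the same in floxed arrays, and 1 in the interaction. Over all genes these counts were 5615, 4595, 492, 2495 and 1281, in the same order. Values of the 16 ran from 1.88 to 6.48 over all arrays, and 7 of the genes were below the dim level in both KO adjacent arrays. The median KO minus floxed in adjacent epithelium was −0.29. Wfdc11 and Wfikkn1 had the highest mean levels among the 16. Wfdc11 differed by −0.67 ± 0.29 (SE; limma adjusted p = 0.166) and Wfikkn1, which codes for a protein with several inhibitor domains, by 0.39 ± 0.45 (adjusted p = 0.583).

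**Figure D3:**
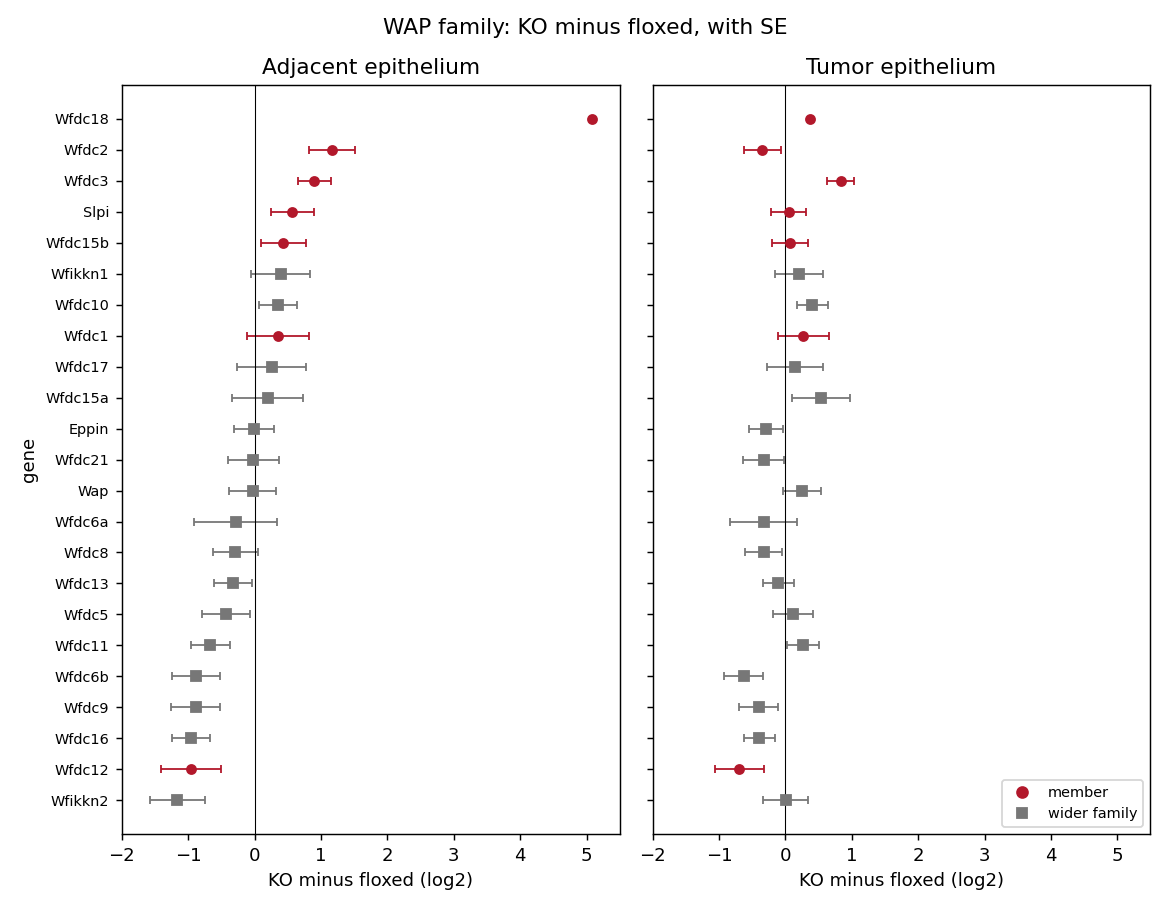
KO minus floxed (log2, x axis) for the 7 members and 16 further WAP genes (y axis, in 1 order for both panels), in adjacent (left) and tumor epithelium (right); bars are the SE of the fit, and Wfdc18 has none because it was chosen from these values. Wfdc18 stands at 5.08 in adjacent epithelium and 0.38 in tumor epithelium, and the other 22 genes lie between −1.16 and 1.16.

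Serine proteases, the usual targets of WAP inhibitors, were described from a list of 20, of which 19 were measured. In KO against floxed adjacent epithelium 2 rose and 0 fell (limma), where 6.06% of all genes passed, and both code for proteases of mucosal mast cells. Mcpt1 was 6.27 and 5.93 in the KO adjacent arrays, against 4.06 and 3.08 in the floxed adjacent arrays, and rose by 2.53 ± 0.53 (SE; limma adjusted p = 0.0286). Mcpt2 was 7.24 and 7.03, against 4.38 and 5.04, and rose by 2.43 ± 0.48 (adjusted p = 0.0252). Over the other 8 arrays Mcpt1 was at most 5.01 and Mcpt2 at most 4.58. Mcpt4, Cma1, Tpsb2 and Tpsab1, also mast cell proteases, did not pass. Their KO minus floxed in adjacent epithelium was −0.835, −0.72, −0.21 and 0.59. Mcpt2 was −3.20 ± 0.44 in KO tumor against KO adjacent arrays (SE; limma adjusted p = 0.0541). Elane, neutrophil elastase and the classic target of Slpi, was 4.16 and 4.08 in KO adjacent arrays, against 6.02 and 4.48 in floxed adjacent arrays (limma adjusted p = 0.180). In the other comparisons 0 of the 19 passed.

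Of 22 other protease inhibitors 18 were measured, and in adjacent epithelium 2 rose and 2 fell in KO, where 6.06% of all genes passed. Serpina3n, a secreted serpin, rose by 1.68 ± 0.34 (SE; limma adjusted p = 0.0265) and Cst3, cystatin C, by 1.80 ± 0.45 (adjusted p = 0.0428). Serpinb9, which blocks granzyme B, fell by 1.63 ± 0.29 (adjusted p = 0.0193), and Csta1, a stefin, fell by 1.61 ± 0.36 (adjusted p = 0.0324). Serpinb9 was 2.384 and 2.464 in the KO adjacent arrays, against 4.28 and 3.831 in the floxed adjacent arrays. Csta1 was 2.56 and 2.704, against 4.201 and 4.284. Each of these values lay under the dim level of its own array, so both falls are between dim values. The median of the 18 was 0.49, and none passed in the other comparisons. All of these calls set the KO arrays against the weak-signal floxed adjacent arrays.

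Markers of other cells were read beside Wfdc18. Of 13 measured goblet and Paneth cell markers, 3 rose and 0 fell in KO adjacent epithelium, where 6.06% of all genes passed. They were Agr2 by 4.31, Clca1 by 3.42 and Pla2g2a by 2.18 (limma adjusted p = 0.0242, 0.0456 and 0.0427), against weak-signal floxed adjacent arrays. Agr2 and Clca1 split by signal across all arrays. Agr2 was 6.338 to 9.717 in the 8 stronger arrays and 4.522 to 5.508 in the 4 weak-signal arrays. Clca1 was 6.998 to 8.897 and 3.612 to 5.289. Floxed tumor array 3, of stronger signal, held 7.644 and 7.676. The mean of the 13 markers was 6.52 to 6.81 in KO adjacent, 5.19 to 5.41 in floxed adjacent, 5.98 to 6.58 in KO tumor and 4.78 to 6.29 in floxed tumor arrays. Pla2g2a, a Paneth cell phospholipase, was 7.32 and 8.70 in the KO adjacent arrays and at most 6.40 in the others. Other Paneth cell markers of the list did not pass, with KO minus floxed at −0.61 for Ang4, −0.44 for Defa24, 0.09 for Mmp7 and 0.97 for Lyz1. In the stomach and Brunner gland list 1 of 8 rose in KO adjacent against floxed adjacent arrays and the same gene fell in KO tumor against KO adjacent arrays, Gkn3, a gastrokine, by 3.68 and −4.06 (limma adjusted p = 0.0126 and 0.0380), where 6.06% and 0.0201% of all genes passed. Gkn3 was 8.51 and 8.02 in the KO adjacent arrays and 8.87 in conflict array 1, where Wfdc18 was 4.49. The part of these cells in the Wfdc18 values was not tested.

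Of 12 neutrophil markers 0 rose and 1 fell in KO against floxed tumor epithelium, the calcium-binding S100a8, by −1.39 (limma adjusted p = 0.0438), where 1.08% of all genes passed, and 0 passed elsewhere. Their mean was 4.00 to 4.21 in KO adjacent, 4.34 to 4.37 in floxed adjacent, 3.81 to 3.90 in KO tumor and 4.17 to 4.63 in floxed tumor arrays. Of the 12, 6 lay below the dim level in both KO adjacent arrays. S100a8 was 3.851, 3.651 and 3.329 in KO tumor arrays 1 to 3, each under the dim level of its array. It was 4.585, 5.275 and 5.148 in floxed tumor arrays 1 to 3, each above that level, with arrays 1 and 2 of weak signal. Of 8 fibroblast markers 1 rose in each genotype comparison, Dcn in adjacent epithelium by 1.53 and Col3a1 in tumor epithelium by 1.21 (limma adjusted p = 0.0315 and 0.0478), where 6.06% and 1.08% of all genes passed. None of the 7 macrophage markers or the 11 epithelial markers passed in any comparison. The epithelial list still had a median KO minus floxed of 1.72 in adjacent epithelium, with 11 of 11 members above 0. This median and the Dcn call both set KO arrays against the weak-signal floxed adjacent arrays. The part of signal strength in them was not tested.

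The 10 genes whose pattern over the 12 arrays was most like that of Wfdc18 were named by Pearson correlation, from 0.872 to 0.951. These correlations rest on the 2 KO adjacent arrays, since over the other 10 arrays they ran from −0.002 to 0.614. Ifitm1, an interferon-inducible membrane protein, was closest, at 6.95 and 7.75 in KO adjacent arrays 1 and 2 and 4.95 to 5.70 elsewhere. Scd2, a fatty acid desaturase, was 6.77 and 7.03, against 3.08 to 4.40 elsewhere. Kcne3, a subunit of epithelial potassium channels, was 7.32 and 7.52, against 3.96 to 5.88, and the Wnt inhibitor Notum was 6.50 and 6.30, against 3.92 to 5.09.

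The others were Itga2, a collagen-binding integrin, Sinhcaf, a subunit of a histone deacetylase complex, Mcpt2, Stmn1, which binds tubulin, the cytokine Il1b and Atp1b3, a subunit of the sodium pump. In all 10 genes both KO adjacent arrays were above every other array, with gaps of 0.64 to 2.37, against 3.75 for Wfdc18. The relatives were less alike, with correlations of 0.665 for Wfdc15b, 0.347 for Wfdc3, 0.312 for Wfdc2, 0.216 for Wfdc1, 0.031 for Slpi and −0.110 for Wfdc12.

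**Figure D4:**
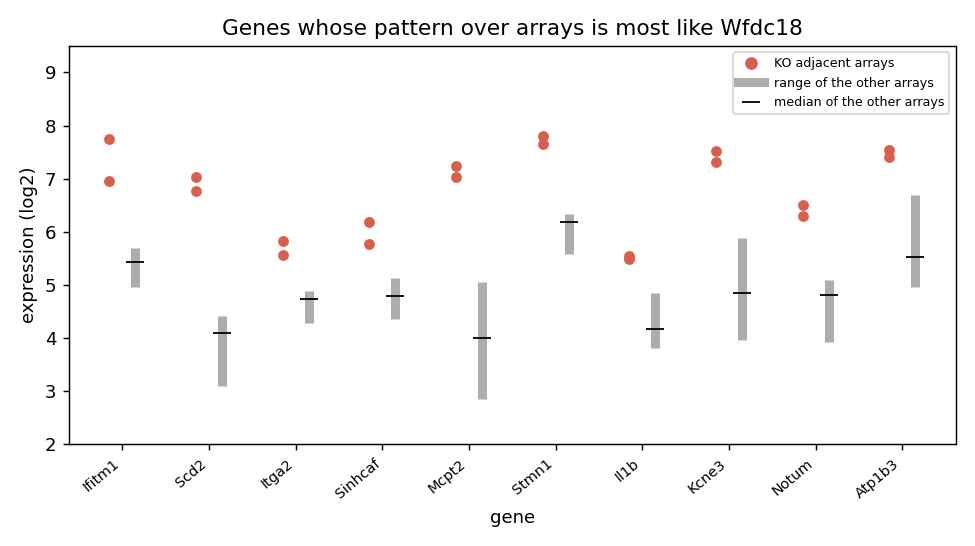
Expression (log2, y axis) of the 10 genes most correlated with Wfdc18 over 12 arrays (x axis, highest correlation first); points are the 2 KO adjacent arrays, and each grey bar spans the other 10 arrays with their median. The KO adjacent points lie above the grey bar for every gene, most widely for Scd2, as the choice of genes by this pattern favours.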

How the data were processed

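The authors deposited log2 values for 35556 probe sets on each array, made with Partek and RMA, per the submitters' processing notes, which give no version. RNA was prepared with a GeneChip WT Pico kit, per the labels' protocols. Of the probe sets, 21789 had 1 gene symbol in the platform annotation, 1621 had several and 12146 had none here. The genome build of the probe sets and detection calls are not given in the sources used here. Coordinates are printed only for the RefSeq promoter windows (GRCm38.p6).

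limma 3.58.1 (R 4.3.3) fitted the 10 arrays with a clear genotype as 4 groups (lmFit, eBayes, two-sided), with Benjamini-Hochberg adjustment over 19938 genes, and steps were tested on simulated data. Promoters were aligned locally with Biopython 1.88. Precision is limited by how few arrays each group has.

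The members and lists were chosen with earlier results of these data known. Named genes were the members, the 10 genes most correlated with Wfdc18, up to 4 called genes per list or else 2 with the highest mean. A few values for genes outside this rule were picked for their role or place, after their values were seen. These genes were Elane, Muc5ac, other Paneth cell markers, other mast cell proteases and genes next to Wfdc18.

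No p-value in the report is from a paired fit. A fit with the title number as a block was an alternative. Same-numbered KO and floxed tumor arrays deviated together at 0.105, 0.121 and 0.347 across genes, each above 0.1, but KO tumor array 1 and floxed tumor array 2, which differ in number, did so at 0.246, and no label says what a number shares. Other groups share only 2 numbers, with correlations of −0.129 to 0.0615.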

Additional observations from a re-analysis of the deposited data

Results flagged for a closer look

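The tissue difference of Wfdc2 ran in opposite directions in the 2 genotypes. Tumor minus adjacent was −0.63 (log2) in KO arrays, where all 3 tumor arrays were below both adjacent arrays, and 0.88 in floxed arrays, where all 3 tumor arrays were above both adjacent arrays. The interaction test gave −1.51 with a limma adjusted p of 0.703, so it did not pass, and both floxed adjacent arrays were of weak signal. No group had the 4 arrays needed to look for a single outlying array.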

How the results depend on the processing

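The count of relatives past the test was unchanged in 93 of 101 recomputed counts, pooled over all comparisons. Tumor against adjacent in KO, the same in floxed arrays and the interaction called 4, 1 and 0 of 19938 genes in the main fit. There an unchanged count of relatives says little about stability. In KO against floxed adjacent epithelium it was 2 with array weights and 0 to 2 with 1 array left out, in KO against floxed tumor epithelium 1 with array weights or without weak-signal arrays and 0 to 2 with 1 array left out, and in tumor against adjacent KO epithelium 2 with array weights. Calls over all genes in KO against floxed adjacent epithelium moved too, from 1209 in the main fit to 4034 with array weights. Without floxed tumor array 1, 2 or 3 they were 1804, 3041 and 4903. Without KO tumor array 1, 2 or 3 they were 212, 155 and 254, with 0 relatives called. Of 570 values of single genes, 21 of the relatives changed sign, and none of the 21 passed the test in either setting. Wfdc18 was not in that count. Its tumor minus adjacent in floxed arrays turned from −0.78 to 0.42 without floxed adjacent array 2. With conflicting labels read by title, Wfdc1 was −0.15 in KO against floxed adjacent and Wfdc3 −0.26 in tumor against adjacent floxed arrays; read by characteristic, Wfdc3 was −0.032 in KO and −0.10 in floxed arrays for tumor against adjacent. In KO against floxed tumor, Slpi was −0.018 after quantile normalization and −0.014 after centring on medians, −0.28 without weak-signal arrays, and Wfdc1 was −0.028 after quantile normalization; Wfdc12 was 0.067 without weak-signal arrays. With 1 array left out, KO minus floxed tumor ran from −0.12 to 0.22 for Slpi and from −0.11 to 0.29 for Wfdc15b, KO minus floxed adjacent from −0.47 to 1.17 for Wfdc1, tumor minus adjacent in KO from −0.11 to 0.054 for Slpi and −0.045 to 0.12 for Wfdc3, and in floxed arrays from −0.60 to 1.04 for Wfdc1. The causes were not tested. The replicate block by title number left 0 relatives called in each comparison, with Wfdc3 at an adjusted p of 0.0681 in tumor epithelium, while the count over all genes there was 782 against 215.
Wfdc18 stayed between 3.31 and 6.27 for KO minus floxed adjacent and between −5.61 and −3.65 for tumor minus adjacent in KO, including −4.95 after quantile normalization, −3.73 with labels read by title and −3.65 by characteristic. Without weak-signal arrays no KO against floxed adjacent value could be had. The dimmest genes left out included Wfdc12.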
